A study of Homo sapiens with 6 samples.

Results

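CDK11 knockdown in KHOS cells was read as the log2 signal of the array "KHOS CDK11 siRNA" minus that of the array "KHOS nonspecific siRNA". KHOS is a human osteosarcoma cell line. These are 2 of the 6 arrays of the study, which holds the same 3 conditions (CDK11 siRNA, nonspecific siRNA, untransfected) in KHOS and in U-2OS, a second human osteosarcoma line. All 4 siRNA arrays were from cells transfected with 40 nM siRNA by a lipid reagent, and the study's methods give 48 h between transfection with CDK11 siRNA and RNA collection. Each line stands for 1 tumour, and 1 siRNA sequence was used against CDK11. RNA of 3 flasks was pooled for each array, so each condition had 1 array in a line. The spread between cultures is therefore unknown, no error or p-value can be given for any difference in KHOS, and a difference between KHOS and U-2OS was not tested. The words higher and lower below describe these arrays.

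The array carried 54675 probe sets, short groups of oligonucleotides that each read 1 transcript region. Probe sets stayed in if at least 1 of the 6 arrays gave them a log2 signal over the limit of about 6.6, close to a signal of 100, which left 16409 probe sets and 8882 genes. In the account below a difference is always CDK11 siRNA minus nonspecific siRNA unless untransfected cells are named. A difference of 1 on this scale is a 2-fold difference in signal, and levels of different genes cannot be set against each other.

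CDK11 is a serine/threonine kinase that works with the L-type cyclins. It is encoded by the near-identical genes CDK11A and CDK11B, and it acts on the splicing and transcription machinery as well as in mitosis. It has also been linked to the expression of replication-dependent histones. Genes for DNA replication are switched on by E2F factors before S phase. Genes for mitosis are switched on later, mostly through a promoter element called CHR, which is read by the DREAM and MuvB complexes. The cells were pooled in bulk, so fewer cells in S phase or mitosis and less RNA of these genes per cell cannot be told apart here.

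CDK11 itself was lower on the KHOS CDK11 siRNA array. The brightest of its probe sets, which reads both genes, kept 20.6% of the nonspecific siRNA signal, and all 5 probe sets assigned to these genes were lower, by between 1.32 and 2.32 on the log2 scale. The array medians lay between 2.92 and 2.98, and between 24.9% and 25.9% of probe sets were above the signal limit. KHOS cells carried mesenchymal transcripts, with 11 of 15 mesenchymal markers above the limit on a KHOS siRNA array and VIM at 15.39 with CDK11 siRNA and 15.48 with nonspecific siRNA. Of the osteoblast lineage genes 8 of 23 were above it, among them RUNX2, but SP7, a defining factor of osteoblasts, was at background with 2.20 on both siRNA arrays. Of 13 epithelial markers 4 were above it, among them EPCAM and KRT18, the last at 13.70 with CDK11 siRNA and 13.64 with nonspecific siRNA, and of 10 endothelial markers 1 was, ROBO4, at 10.36 and 9.82. None of 12 blood cell markers was above the limit, and PTPRC, the pan-leukocyte marker, was at 2.94 with CDK11 siRNA and 2.92 with nonspecific siRNA.

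The differences over the kept probe sets had an SD of 0.449 in KHOS. Of the 8882 genes, 98 were lower with a probe set beyond 3 SD, which is 1.1%, and 76 were higher, which is 0.856%. In U-2OS, whose SD was 0.365, 123 genes (1.38%) were lower and 136 (1.53%) higher by the same rule. The limit in KHOS was -1.35 or 1.35. The probe set just past it on the lower side had -1.3461 and the first one short of it -1.3446, and on the higher side these were 1.3515 and 1.3427. Many of these genes were dim: both KHOS siRNA arrays were over the signal limit for 33 of the 98 lower genes and for 29 of the 76 higher genes, as the plot of difference against level shows. Different probe sets of a gene often disagreed. Of the 49 lower genes with more than 1 kept probe set, all their probe sets were beyond 3 SD in 7, and of the 41 such higher genes in 6.

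**Figure D1:**
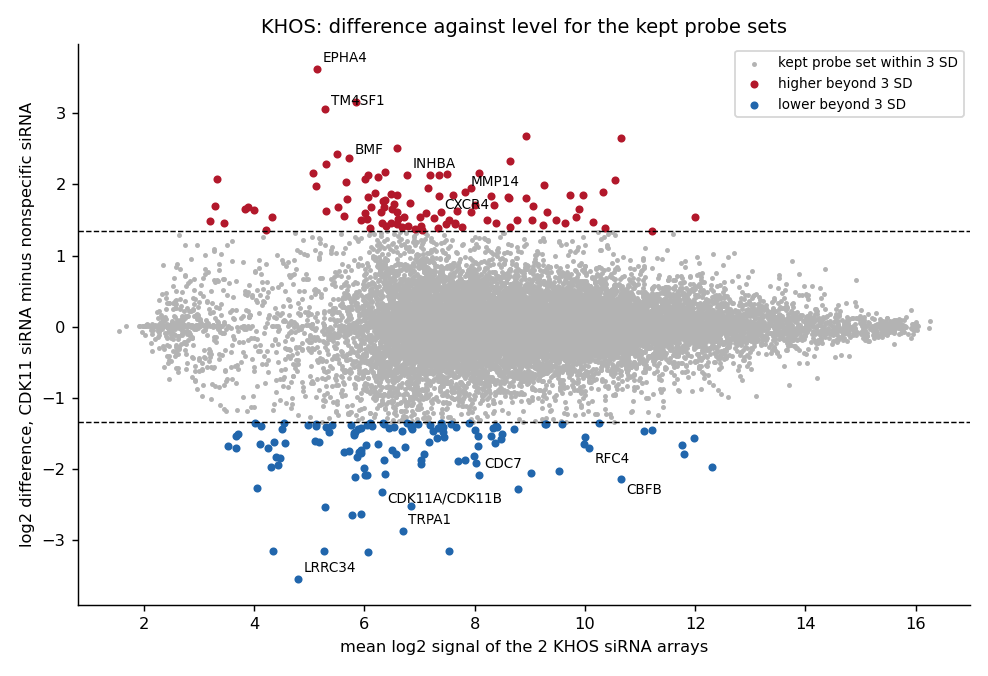
Each point is 1 of the 16409 kept probe sets in KHOS, with the mean log2 signal of the CDK11 siRNA and nonspecific siRNA arrays on the horizontal axis and the log2 difference, CDK11 siRNA minus nonspecific siRNA, on the vertical axis. Dashed lines mark 3 SD (-1.35 and 1.35), and the 227 probe sets beyond them are coloured (107 higher, 120 lower), most of them at levels under 10.

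The untransfected KHOS array served as a second control. It shares the CDK11 siRNA array with the main comparison, so the values are given side by side and are not independent. Of the 98 lower genes, 85 were also more than 1 log2 unit lower with CDK11 siRNA than in untransfected cells, and their median difference was -1.62 against nonspecific siRNA and -1.63 against untransfected cells. The higher genes depended more on the control. Of these 76 genes, 43 were more than 1 log2 unit higher than in untransfected cells, 16 were within 0.5 of them or lower, and the median difference was 1.65 against nonspecific siRNA and 1.31 against untransfected cells.

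The other line was used to see which of the KHOS genes differed there too. Among the 98 lower genes, 27 were beyond 3 SD the same way in U-2OS, 1 was beyond it the other way, 30 were above the signal limit and lower or higher by over 0.5, 25 were above the limit and within 0.5, and 15 were at or below the limit on both U-2OS siRNA arrays. Among the 76 higher genes these counts were 17, 1, 21, 16 and 21. For the last kind of gene U-2OS gave no measure above the limit, so nothing can be said of its response there. A gene counted as above the limit if any of its kept probe sets was. The probe set beyond 3 SD in KHOS could still be dim in U-2OS. Examples are TMEM107 (4.09 with CDK11 siRNA and 4.56 with nonspecific siRNA in U-2OS) and S100A6 (3.62 and 3.56).

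Genes of DNA replication had lower signals with CDK11 siRNA than with nonspecific siRNA in KHOS, and in U-2OS these conditions lay closer together. They were taken from 3 lists: the factors that license and fire origins, the replication fork, and the enzymes that supply nucleotides and the chaperones that place histones. Of their 70 measured genes, 62 had a lower signal with CDK11 siRNA than with nonspecific siRNA in KHOS, against 49.6% of all genes, and in U-2OS 35 did, against 48.2%. In KHOS 21 of the 70 were lower by over 0.5 and none was higher by over 0.5, where 9.94% of all genes were below -0.5 and 8.39% above 0.5. In U-2OS 3 were below -0.5 and 1 above 0.5, against 5.2% and 5.71% of all genes. Of the 70 genes, 18 were lower by over 0.5 in KHOS and within 0.5 in U-2OS, a pattern of 7.17% of all genes. The median difference of the 70 genes was -0.38 in KHOS beside 0.0044 in U-2OS, beside 0.0024 and 0.0087 for all genes. For 64 of the 70 the difference was lower in KHOS than in U-2OS, and this held for 52.4% of all genes. Set against untransfected cells, 30 of the 70 were below -0.5 in KHOS (12.1% of all genes) and 11 in U-2OS (8.03%), with medians of -0.43 in KHOS beside -0.19 in U-2OS, so the lines lay closer together with that control. For nonspecific siRNA minus untransfected cells none of the 70 was below -0.5 in KHOS (5.08% of all genes), and the median was -0.093. In U-2OS 8 of the 70 were below -0.5, against 686 of all 8882 genes, 63 were below 0, and the median was -0.21. The U-2OS control was thus itself lower than untransfected cells for most of these genes.

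**Figure D2:**
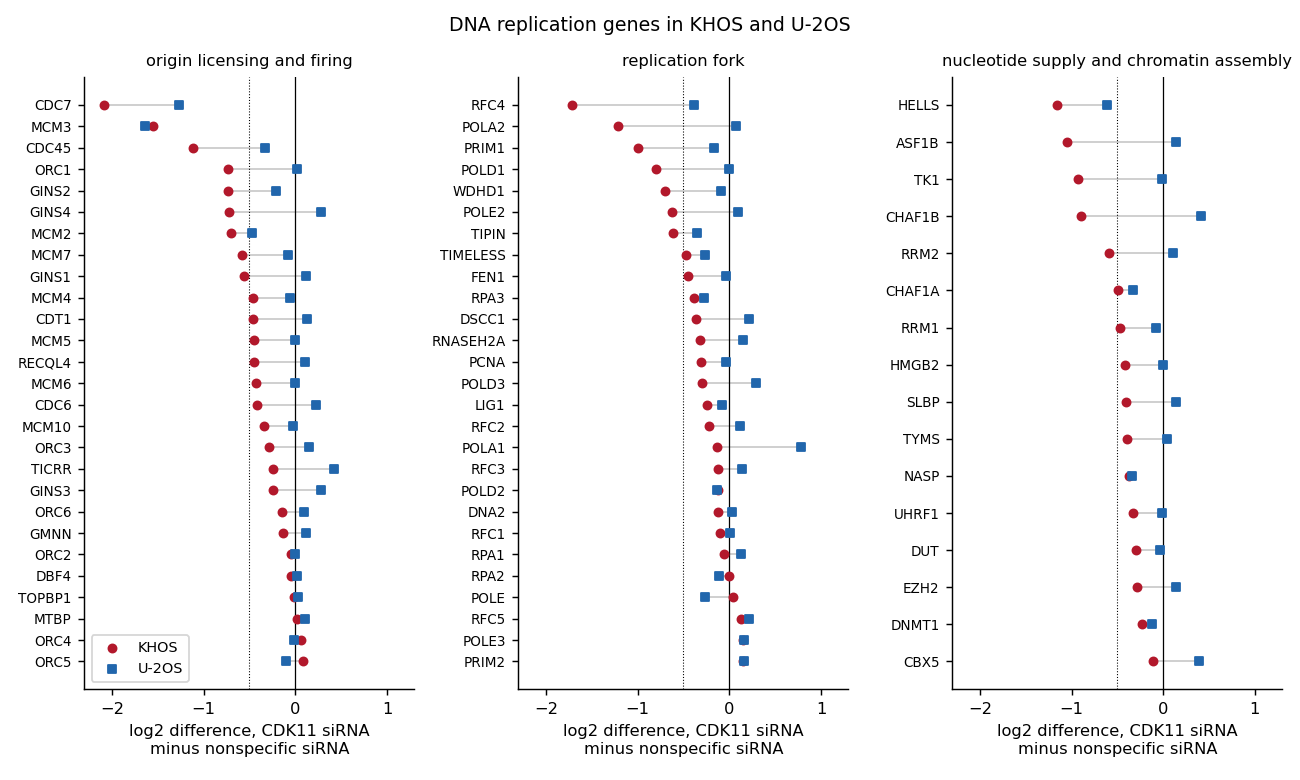
Each row is a gene of the 3 DNA replication lists, and the horizontal axis is its log2 difference, CDK11 siRNA minus nonspecific siRNA, in KHOS (circles) and U-2OS (squares), with 1 array per condition. The KHOS points lie left of 0 for 62 of 70 genes and left of the dotted line at -0.5 for 21, and the U-2OS points lie left of 0 for 35.

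Among the origin genes, CDC7, the kinase that fires licensed origins, had the most negative difference in KHOS. Its log2 level was 7.04 with CDK11 siRNA, 9.12 with nonspecific siRNA and 9.62 untransfected. MCM3, a subunit of the MCM2-7 helicase, was at 9.23, 10.78 and 10.90 in the same order of conditions. Both were also lower in U-2OS, CDC7 by 1.26 and MCM3 by 1.63, so these members were low in both lines. CDC45, which joins the helicase to form its active form, was at 7.28 with CDK11 siRNA, 8.39 with nonspecific siRNA and 8.35 untransfected in KHOS, a difference of -1.11 beside -0.32 in U-2OS. ORC1, the largest subunit of the origin recognition complex, had a difference of -0.73 in KHOS beside 0.020 in U-2OS. The GINS subunits also belong to the active helicase, and GINS2 (-0.73), GINS4 (-0.72) and GINS1 (-0.56) were all lower in KHOS, while in U-2OS their differences were -0.21, 0.29 and 0.12. MCM2 was at -0.70 and MCM7 at -0.58. The other subunits MCM4, MCM5 and MCM6 were lower by less than 0.5.

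At the fork, RFC4, a subunit of the clamp loader that sets PCNA on DNA, was at 9.22 with CDK11 siRNA, 10.93 with nonspecific siRNA and 10.87 untransfected in KHOS. This left 30.5% of the nonspecific siRNA signal, and in U-2OS the levels were 10.53, 10.91 and 11.08. POLA2, the B subunit of DNA polymerase alpha, which starts each new strand, was at 7.74, 8.94 and 8.71 in KHOS and at 8.66, 8.58 and 8.86 in U-2OS. Its partner PRIM1, the catalytic primase subunit, was at 8.64, 9.64 and 9.92 in KHOS and had a difference of -0.17 in U-2OS. POLD1, the catalytic subunit of the lagging strand polymerase delta, was at -0.79 in KHOS beside -0.0060 in U-2OS. These genes serve priming, loading and elongation, and in KHOS the CDK11 siRNA array was the lowest of the 3 for each of them. PCNA itself, the sliding clamp, was lower by only 0.30, and POLE, the catalytic subunit of the leading strand polymerase, was at 0.043.

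Of the nucleotide and chromatin genes all 16 were lower in KHOS and 9 in U-2OS (49.6% and 48.2% of all genes). ASF1B, a histone chaperone, was at 6.68 with CDK11 siRNA, 7.72 with nonspecific siRNA and 7.18 untransfected in KHOS, and at 6.65, 6.51 and 6.78 in U-2OS. CHAF1B, a subunit of the chromatin assembly factor CAF-1, had a difference of -0.89 in KHOS beside 0.41 in U-2OS. TK1, thymidine kinase, was at -0.92 and -0.014, and RRM2, the regulated subunit of ribonucleotide reductase, at -0.60 and 0.10. The replication-dependent histones did not follow them. Only 6 of their genes were measured, 1 was lower in KHOS, and their median was 0.39. Most such histone mRNAs lack a poly(A) tail.

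The promoters of these genes are shown because so many members of 1 pathway were lower together. Promoters, taken from RefSeq as 250 bases before to 50 bases after the transcription start, were found for 7401 of the 8882 measured genes. An E2F-like motif (TTTCCCGC, TTTGGCGC, TTTCGCGC or TTTGCCGC, on either strand) was present in 23 of 59 promoters of the 3 replication lists (39%), against 5.76% of all 7401. The motif did not separate the members that were lower by over 0.5 in KHOS, where 8 of 20 (40%) held it, from the others, where 15 of 39 (38.5%) did. POLA2, GINS2 and MCM3 are members below -0.5 whose promoter holds it, and the motif is in capitals, read from 5′ to 3′ on the strand of the gene. The GINS2 match is on the opposite strand. They lie at chr11:65261712-65262011 (plus strand), chr16:85688905-85689204 (minus strand) and chr6:52284693-52284992 (minus strand) of GRCh38.p14.
POLA2: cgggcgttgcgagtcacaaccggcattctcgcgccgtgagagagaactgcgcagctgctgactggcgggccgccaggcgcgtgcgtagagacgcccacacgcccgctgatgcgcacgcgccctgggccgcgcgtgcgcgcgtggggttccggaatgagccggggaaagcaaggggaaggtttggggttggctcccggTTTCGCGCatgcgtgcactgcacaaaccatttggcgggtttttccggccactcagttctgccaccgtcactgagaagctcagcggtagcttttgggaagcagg
GINS2: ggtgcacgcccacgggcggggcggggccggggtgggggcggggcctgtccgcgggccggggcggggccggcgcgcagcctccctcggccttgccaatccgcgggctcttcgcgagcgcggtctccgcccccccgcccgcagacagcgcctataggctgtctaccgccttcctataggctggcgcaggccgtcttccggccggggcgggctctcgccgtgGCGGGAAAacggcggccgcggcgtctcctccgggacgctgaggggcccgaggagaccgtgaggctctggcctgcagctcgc
MCM3: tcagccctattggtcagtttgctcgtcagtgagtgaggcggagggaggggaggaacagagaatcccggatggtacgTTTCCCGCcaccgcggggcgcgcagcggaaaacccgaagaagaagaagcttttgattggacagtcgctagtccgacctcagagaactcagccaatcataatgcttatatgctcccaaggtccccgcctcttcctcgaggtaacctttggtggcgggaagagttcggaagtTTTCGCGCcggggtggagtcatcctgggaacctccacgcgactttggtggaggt
A match of these letters is a description of the sequence and no evidence of binding. MCM3 has a pair of matches and was lower in both lines, while POLA2 has 1 and had a difference of -1.21 in KHOS beside 0.077 in U-2OS.

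The E2F factors that act on such promoters were themselves measured. E2F1, an activator, was at 7.09 with CDK11 siRNA, 8.08 with nonspecific siRNA and 7.84 untransfected in KHOS, and its difference was -0.51 in U-2OS. E2F8, a repressor of the same family, was at 6.11, 7.18 and 7.84 in KHOS, a difference of -1.07 beside 0.074 in U-2OS. The median of the 16 measured E2F and RB family genes was -0.27 in KHOS beside 0.067 in U-2OS. In KHOS 3 were below -0.5 and 1 above 0.5 (9.94% and 8.39% of all genes). CCNE1, the cyclin that drives entry into S phase with CDK2, was at 7.28 with CDK11 siRNA, 8.73 with nonspecific siRNA and 8.21 untransfected, and was also lower in U-2OS, by 0.99. CDKN1B, which encodes the CDK inhibitor p27, was higher, at 12.26, 11.66 and 11.05 in KHOS, and its difference was 0.60 in KHOS beside 0.54 in U-2OS.

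Homologous recombination and Fanconi anaemia genes repair breaks and crosslinks, and many of them are used at stalled forks. Of 22 measured, 20 were lower in KHOS, 7 by over 0.5, and none was higher by over 0.5. The shares of all genes were 49.6%, 9.94% and 8.39%. In U-2OS 16 were lower, 3 by over 0.5, and 1 was higher by over 0.5. There the shares of all genes were 48.2%, 5.2% and 5.71%. The list median was -0.37 in KHOS beside -0.11 in U-2OS. BRCA1, which promotes repair by recombination, was at 8.77 with CDK11 siRNA, 10.06 with nonspecific siRNA and 10.16 untransfected in KHOS. FANCL, the ubiquitin ligase of the Fanconi core complex, was at 9.39, 10.48 and 10.63. Both were lower in U-2OS as well, by 0.65 and 0.42. FANCG, another core complex subunit, was at -0.79 in KHOS beside 0.093 in U-2OS. EME1, the partner of the MUS81 nuclease, was beyond 3 SD in KHOS with 1 of its 2 kept probe sets, which was dim there (3.75 with CDK11 siRNA, 5.38 with nonspecific siRNA and 5.49 untransfected) and within 0.5 in U-2OS. The checkpoint and damage signalling list stood closer to 0, with a median of -0.14 in KHOS beside 0.026 in U-2OS.

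Mitosis genes were lower across the list in KHOS. Against nonspecific siRNA their median was less negative than that of the 3 replication lists together (-0.29 beside -0.38). Against untransfected cells it was not (-0.47 beside -0.43). Of 54 measured genes 48 were lower in KHOS (49.6% of all genes), beside 14 in U-2OS (48.2%). In KHOS 14 were below -0.5 and none above 0.5 (9.94% and 8.39% of all genes). In U-2OS 1 was below -0.5 and 2 above 0.5 (5.2% and 5.71%). The medians were -0.29 in KHOS beside 0.10 in U-2OS. Against untransfected cells they were -0.47 in KHOS beside -0.23 in U-2OS, and nonspecific siRNA alone was lower than untransfected by a median of 0.21 in KHOS beside 0.32 in U-2OS. Thus in U-2OS this list was lower than in untransfected cells with either siRNA, and in KHOS it was lowest with CDK11 siRNA. SPC24, a subunit of the NDC80 complex that binds microtubules at the kinetochore, was the only list member beyond 3 SD in KHOS, at 6.10 with CDK11 siRNA, 7.45 with nonspecific siRNA and 7.61 untransfected. Its difference of -1.3461 was only just past the lower bound of -1.3457. In U-2OS its levels were 6.35, 6.17 and 6.67, where both siRNA arrays were below the signal limit. CENPK, a constitutive centromere protein, was at 9.60, 10.83 and 11.24 in KHOS, and SGO2, which protects centromeric cohesion, at 10.61, 11.60 and 11.86. KIF11, the motor that pushes spindle poles apart, was at 10.29, 11.05 and 11.21 in KHOS, with a difference of -0.76 beside 0.047 in U-2OS.

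The CHR motif TTTGAA, on either strand, was in 32 of 46 mitosis promoters (69.6%) and in 10.1% of all 7401, and CCAAT, on either strand, was in 33 of 46 (71.7%) and in 37.4% of all. The replication promoters differed from these, with TTTGAA in 3 of 59 (5.08%). KIF11 is shown as the lowest mitosis member in KHOS whose promoter holds TTTGAA, here on the opposite strand and in capitals. It lies at chr10:92592880-92593179 (plus strand).
KIF11: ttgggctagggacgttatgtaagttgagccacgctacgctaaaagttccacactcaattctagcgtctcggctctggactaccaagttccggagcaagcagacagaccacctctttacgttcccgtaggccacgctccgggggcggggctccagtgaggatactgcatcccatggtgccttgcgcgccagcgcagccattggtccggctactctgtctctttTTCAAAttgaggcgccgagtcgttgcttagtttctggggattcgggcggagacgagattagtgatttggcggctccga
The promoter was read the same way for all genes, and the match says nothing of which factor was active in these cells.

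MKI67, the gene of the proliferation antigen Ki-67, was named after its values were seen. In KHOS its 4 kept probe sets had differences of -1.48, -0.76, -0.40 and -0.19. In U-2OS the same probe sets had -0.35, -0.057, -0.15 and 0.11.

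**Figure D3:**
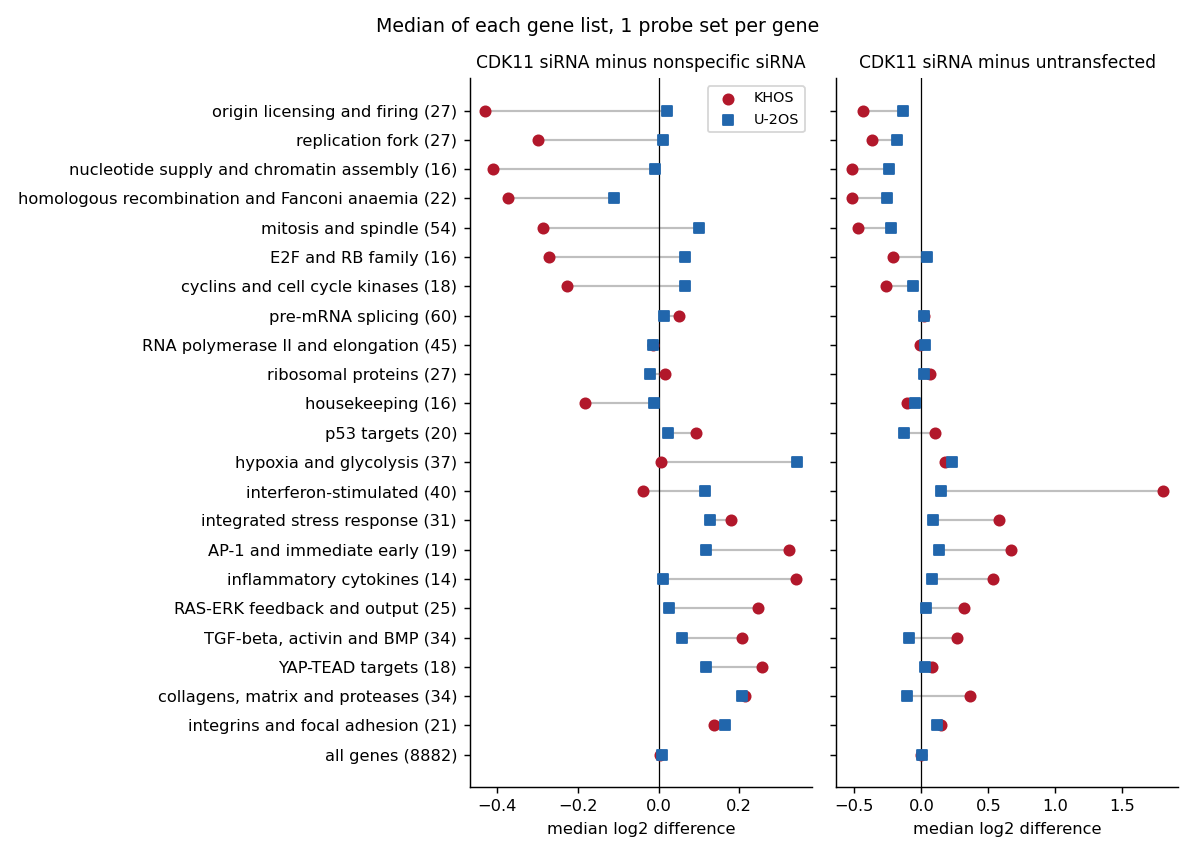
Each row is a gene list with its number of measured genes, and the horizontal axis is the median log2 difference over the list, 1 probe set per gene, in KHOS (circles) and U-2OS (squares), for CDK11 siRNA minus nonspecific siRNA on the left and CDK11 siRNA minus untransfected on the right; the panels have different scales and share the CDK11 siRNA arrays. The replication and mitosis lists lie to the left in KHOS (medians of -0.43 to -0.29) and the interferon list lies far to the right in KHOS only against untransfected cells (1.80).

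Of the lowest single genes in KHOS, several were also low against untransfected cells and had little or no signal in U-2OS. LRRC34, a leucine-rich repeat gene, was at 3.03 with CDK11 siRNA, 6.58 with nonspecific siRNA and 6.71 untransfected in KHOS. The U-2OS arrays gave it 2.69 to 2.75. TRPA1, an ion channel opened by irritants, was at 5.26, 8.13 and 8.81 in KHOS. C5, the complement component, was at 4.76, 6.88 and 6.99 in KHOS and at 3.56 at most in U-2OS. In these genes the KHOS array with CDK11 siRNA was lower than both controls, while in U-2OS the signal was below the limit on every array. For LRRC34 the KHOS nonspecific siRNA array was itself just under the limit, and only the untransfected one was above it. ATP6V0E2, a subunit of the proton pump of lysosomes, was at 4.45 with CDK11 siRNA, 7.10 with nonspecific siRNA and 7.25 untransfected in KHOS, and its difference in U-2OS was -0.63. Of the 29 measured genes of the vacuolar ATPase and lysosome list it was 1 of 2 below -0.5 in KHOS (9.94% of all genes). The median of the list was 0.068.

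Other low genes were lower in both lines. CBFB, the partner that stabilises RUNX factors on DNA, was at 9.58 with CDK11 siRNA, 11.72 with nonspecific siRNA and 11.62 untransfected in KHOS, and its difference was -2.15 in KHOS beside -1.55 in U-2OS. Its other kept probe set was at -0.74 and -0.38. TMEM19, a membrane protein gene, was at -2.48 and -1.98, and B9D1, a component of the ciliary transition zone, at -2.35 and -0.91. UBE2K, a ubiquitin-conjugating enzyme, depended on the probe set. In KHOS one was at 5.96 with CDK11 siRNA, 9.12 with nonspecific siRNA and 9.42 untransfected, but the others were at -0.30 and 0.15, and the brightest of the 3 was the one at 0.15. RUNX2, the osteoblast factor that CBFB partners, was higher at 10.24, 9.60 and 9.51 in KHOS.

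Some of the 25 genes that were lower in KHOS and within 0.5 in U-2OS, above the limit there, are given by their levels. CEP78, a centrosomal protein, was at 6.54 with CDK11 siRNA, 8.10 with nonspecific siRNA and 8.05 untransfected in KHOS on 1 of its 3 probe sets, and at 7.85, 7.85 and 8.61 in U-2OS. Its brighter probe sets differed by -0.27 and -0.053 in KHOS, and the mean over all 3 was -0.63 in place of -1.57. MNS1, a protein of motile cilia and sperm tails, was at 6.67, 8.22 and 8.05 in KHOS and at 6.90, 6.97 and 6.45 in U-2OS. DIXDC1, a DIX domain protein of Wnt signalling, was at 4.43, 5.82 and 5.63 in KHOS, under the signal limit on each array. In U-2OS DIXDC1 was at 8.54, 8.05 and 8.64. On these probe sets the CDK11 siRNA array was the lowest of the 3 in KHOS. In U-2OS this was so for CEP78, by less than 0.01 from nonspecific siRNA, and not for MNS1 and DIXDC1. NCS1, a neuronal calcium sensor, was dim in KHOS, at 2.82, 4.53 and 4.69, but well measured in U-2OS at 7.03, 7.19 and 7.23. PCBD2 was lower by 1.99 than nonspecific siRNA and by 0.67 than untransfected KHOS cells, on 1 of its 2 probe sets. That probe set was at 3.39 with CDK11 siRNA and 3.07 with nonspecific siRNA in U-2OS, under the signal limit. The brighter one was higher in KHOS with CDK11 siRNA than with nonspecific siRNA. DNAAF11, which lay near its untransfected level, was at 2.94 with CDK11 siRNA, 4.46 with nonspecific siRNA and 3.07 untransfected in KHOS.

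On the higher side, TM4SF1, a membrane protein, had the largest difference in KHOS when the probe sets beyond 3 SD were averaged per gene. Only the dimmest of its 4 probe sets was beyond 3 SD, at 6.82 with CDK11 siRNA, 3.76 with nonspecific siRNA and 5.11 untransfected. Its other probe sets were higher by 0.79 to 0.92, and the brightest was at 14.76, 13.95 and 14.72. EPHA4, a receptor tyrosine kinase for ephrins, was read by 2 probe sets. The brighter was at 9.17 with CDK11 siRNA in KHOS, which is 2.17 above nonspecific siRNA and 1.18 above untransfected cells, and the dimmer was at 6.94 with CDK11 siRNA, 3.33 with nonspecific siRNA and 4.36 untransfected. In U-2OS neither was above 3.28 with CDK11 siRNA. EFNA5, a ligand of this receptor family, lay on the lower side in KHOS, at 6.14 with CDK11 siRNA, 7.55 with nonspecific siRNA and 7.64 untransfected. CXCR4, the receptor of the chemokine CXCL12, was at 8.27, 6.43 and 6.17 in KHOS. In U-2OS it was at background on all 3 arrays, with 3.15 at most. The gene was thus above the signal limit in KHOS only with CDK11 siRNA.

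FBXO32, an F-box ubiquitin ligase of muscle wasting, was at 8.55 with CDK11 siRNA, 6.59 with nonspecific siRNA and 6.72 untransfected in KHOS as the mean of the 3 probe sets beyond 3 SD, and between 3.01 and 3.05 in U-2OS. SHISA2, known from frog and mouse to hold back Wnt and FGF receptors, was at 9.22, 7.38 and 7.41 in KHOS. KLHL14, a Kelch-like protein gene, was at 7.47, 5.29 and 5.38. For each of these genes the KHOS controls lay within 0.13 of each other and the CDK11 siRNA array stood alone above them, while U-2OS was under the signal limit throughout. CREBRF, a regulator of the transcription factor CREB3, was at 8.59 with CDK11 siRNA, 6.79 with nonspecific siRNA and 6.45 untransfected, with all 3 kept probe sets beyond 3 SD. In U-2OS its mean difference was 0.43.

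**Figure D4:**
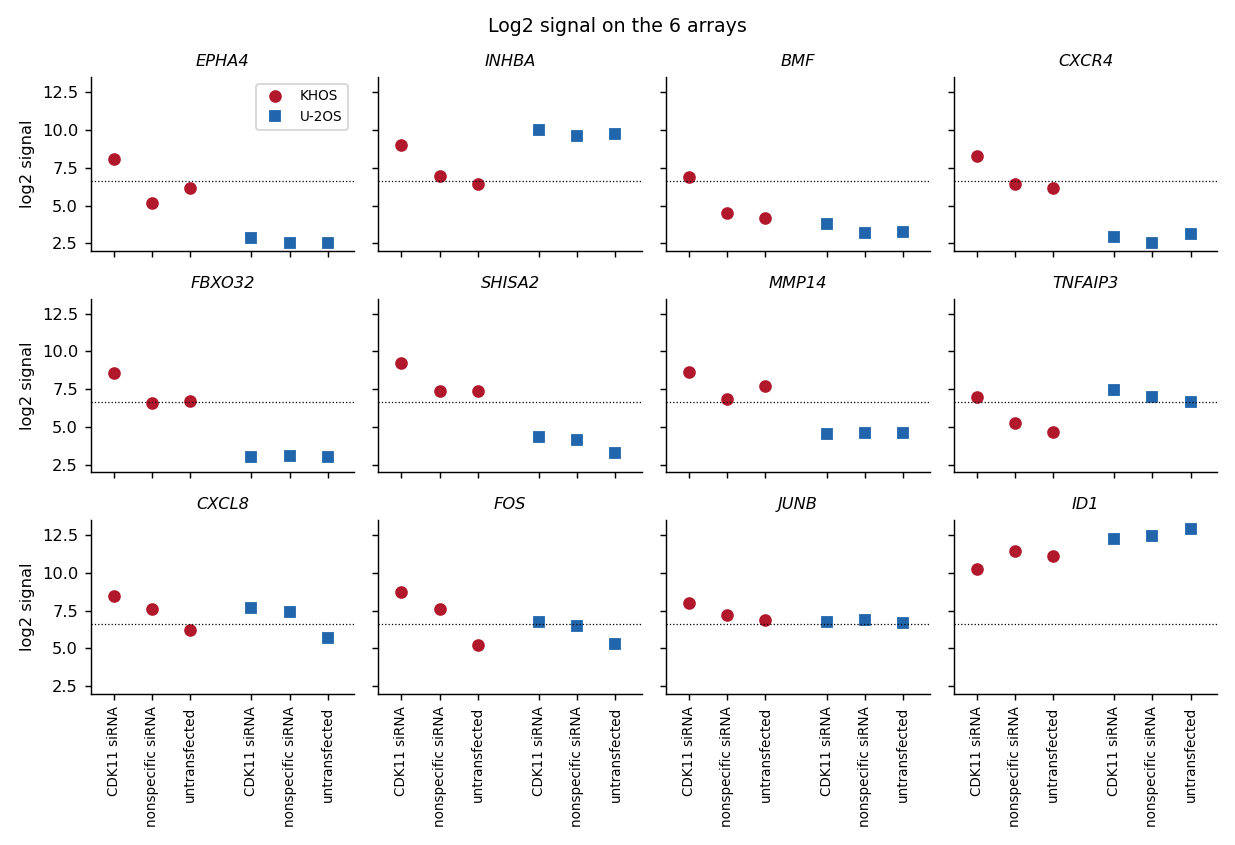
Each panel is a gene and each point the log2 signal of 1 array, with CDK11 siRNA, nonspecific siRNA and untransfected from left to right in KHOS (circles) and then in U-2OS (squares), and the dotted line is the signal limit; EPHA4, INHBA, BMF, CXCR4, FBXO32, SHISA2, MMP14 and TNFAIP3 are means of the probe sets beyond 3 SD and the other 4 genes are the brightest probe set. In KHOS the CDK11 siRNA array is highest for every gene but ID1, for which it is lowest, and EPHA4, BMF, CXCR4, FBXO32, SHISA2 and MMP14 stay under the limit in U-2OS.

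Several inflammatory genes had a higher signal in KHOS. Of 14 measured, 6 were above 0.5 and 1 below -0.5 in KHOS, with a median of 0.34, beside 8.39% and 9.94% of all genes. Over the 22 genes with no filter on signal the median was 0.13, with 7 above 0.5 and 1 below -0.5. In U-2OS 5 were above 0.5 and 2 below -0.5 (5.71% and 5.2% of all genes), with a median of 0.0099. TNFAIP3, a ubiquitin-editing enzyme that restrains NF-kappaB and is itself a target of it, was at 6.96 with CDK11 siRNA, 5.28 with nonspecific siRNA and 4.70 untransfected in KHOS. In U-2OS it was at 7.46, 6.96 and 6.68. CXCL8, the neutrophil chemokine interleukin 8, was at 8.48, 7.58 and 6.25 in KHOS. CXCL2, a related chemokine, was at 6.78, 5.94 and 4.58. For these 3 genes the nonspecific siRNA array already lay above the untransfected one in KHOS, and the CDK11 siRNA array lay higher still. CXCL1 was at 7.14 with CDK11 siRNA, 6.14 with nonspecific siRNA and 6.84 untransfected, so only its distance from nonspecific siRNA was large, and in U-2OS it was at background. PTGS2, the inducible cyclooxygenase, was higher in both lines, by 1.33 in KHOS beside 1.14 in U-2OS. PTX3, a pentraxin of innate immunity, was higher than nonspecific siRNA by 1.50 in KHOS beside 1.54 in U-2OS but lower than untransfected KHOS cells, at 9.79 with CDK11 siRNA, 8.29 with nonspecific siRNA and 10.43 untransfected.

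The promoters of TNFAIP3 and CXCL1 are shown because both are well known NF-kappaB targets. A kappaB motif, searched on both strands after the values were seen, was in 8 of 13 promoters of the inflammatory list (61.5%) and in 6.69% of all 7401. Of the 6 members above 0.5 in KHOS, 4 held it (66.7%), and CXCL8 and PTGS2 did not. It was also in CCL20 (-0.56 in KHOS), NFKBIZ (-0.15), NFKB1 (0.04) and NFKBIA (0.25). The motif thus did not separate the higher members from the others. The matches are in capitals. They lie at chr6:137867009-137867308 (plus strand) for TNFAIP3 and chr4:73869143-73869442 (plus strand) for CXCL1, where matches on both strands overlap in 1 run of capitals.
TNFAIP3: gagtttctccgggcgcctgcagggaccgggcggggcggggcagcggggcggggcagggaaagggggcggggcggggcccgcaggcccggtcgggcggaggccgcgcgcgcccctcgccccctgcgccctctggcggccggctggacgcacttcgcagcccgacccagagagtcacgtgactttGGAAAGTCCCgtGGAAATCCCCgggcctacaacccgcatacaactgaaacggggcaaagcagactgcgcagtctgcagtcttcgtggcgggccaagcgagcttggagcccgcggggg
CXCL1: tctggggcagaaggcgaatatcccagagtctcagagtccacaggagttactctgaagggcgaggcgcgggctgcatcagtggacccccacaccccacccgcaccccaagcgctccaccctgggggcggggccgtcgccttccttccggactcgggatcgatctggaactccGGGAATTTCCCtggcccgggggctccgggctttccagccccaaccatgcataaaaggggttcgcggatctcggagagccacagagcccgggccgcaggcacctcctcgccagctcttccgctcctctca
TNFAIP3 was higher with CDK11 siRNA than either KHOS control, and CXCL1 was close to the untransfected one.

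Immediate early genes are switched on within minutes of growth factor or stress signals, and many code for subunits of AP-1. None of the 19 measured had a lower signal in KHOS (49.6% of all genes), and 5 were above 0.5 (8.39%). In U-2OS 6 were lower (48.2% of all genes) and 2 were above 0.5 (5.71%). The medians were 0.32 in KHOS beside 0.12 in U-2OS. FOS, an AP-1 subunit, was at 8.76 with CDK11 siRNA, 7.64 with nonspecific siRNA and 5.26 untransfected in KHOS, and at 6.75, 6.48 and 5.31 in U-2OS. JUNB, another subunit, was at 8.02, 7.18 and 6.88 in KHOS and at 6.76, 6.87 and 6.69 in U-2OS. EGR3, a zinc finger factor, was higher by 0.73 in KHOS beside 0.26 in U-2OS. The list was also higher with nonspecific siRNA than untransfected in KHOS, by a median of 0.43. Here 8 of 19 genes were above 0.5 (6.18% of all genes). Part of its distance from untransfected cells was therefore shared by both siRNAs.

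Targets and feedback genes of the RAS-ERK pathway had a median of 0.25 in KHOS beside 0.025 in U-2OS. In KHOS 4 of 25 were above 0.5 and 1 below -0.5, against 8.39% and 9.94% of all genes. DUSP5, a nuclear phosphatase of ERK, was at 12.24 with CDK11 siRNA, 11.40 with nonspecific siRNA and 11.02 untransfected in KHOS, and its difference in U-2OS was 0.0059. SPRY2, a feedback inhibitor of receptor tyrosine kinases, was at 13.13, 12.42 and 12.02 in KHOS and was higher by 0.62 in U-2OS. ETV1, an ETS factor downstream of ERK, was at 10.96, 10.14 and 10.32 in KHOS and below the limit in U-2OS. DUSP4, another nuclear phosphatase, was lower by 0.59. The p53 targets, with a median of 0.094 in KHOS, and the unfolded protein response genes, with 0.016, stood close to all genes.

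Members of the TGF-beta superfamily list lay on both sides in KHOS. INHBA, the subunit of activin A, was at 10.25 with CDK11 siRNA, 8.26 with nonspecific siRNA and 7.70 untransfected in its brightest probe set, and its other probe set was higher by 2.13. In U-2OS these were 10.66, 10.15 and 10.49, and the other was higher by 0.32. TGFBR2, the type II receptor of TGF-beta, was at 13.22, 12.19 and 11.94 in KHOS and was higher by 0.55 in U-2OS. SMAD7, an inhibitor that TGF-beta induces, was at 9.58, 8.72 and 8.01 in KHOS, a difference of 0.86 beside -0.27 in U-2OS, and PMEPA1, a further induced inhibitor, was higher by 0.86 in KHOS beside 0.71 in U-2OS. The ID genes, which code for inhibitors of basic helix-loop-helix factors and are induced by BMP signals, lay on the lower side. ID1 was at 10.26 with CDK11 siRNA, 11.44 with nonspecific siRNA and 11.14 untransfected, a difference of -1.19 beside -0.18 in U-2OS. ID3 (-0.89) and ID2 (-0.64) were also lower in KHOS, and both were nearer to the untransfected level, at -0.13 and -0.17. BMP2, a BMP ligand, was dim in KHOS at 4.89, 3.52 and 3.33. Over the whole list of 34 genes 9 were above 0.5 and 5 below -0.5 in KHOS (8.39% and 9.94% of all genes). In U-2OS 7 were above 0.5 and none below -0.5 (5.71% and 5.2% of all genes). The medians were 0.21 in KHOS and 0.058 in U-2OS. The genes above 0.5 in KHOS and within 0.5 in U-2OS numbered 6 of 34, and 6.03% of all genes had this pattern.

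Matrix genes and their proteases were spread widely in KHOS. Of 34 measured, 12 were above 0.5 and 3 below -0.5 in KHOS, where 8.39% and 9.94% of all genes were. The 3 below -0.5 were thus near the share of all genes. In U-2OS 5 were above 0.5 and 2 below -0.5 (5.71% and 5.2% of all genes). Above 0.5 in KHOS and within 0.5 in U-2OS were 9 (6.03% of all genes), but the median was 0.21 in either line. MMP14, the membrane-bound metalloproteinase that cleaves collagen, was at 8.77 with CDK11 siRNA, 6.87 with nonspecific siRNA and 7.86 untransfected in KHOS, and at background in U-2OS. FBN1, the microfibril protein fibrillin 1, was at 8.84, 7.64 and 8.08, and TIMP3, a matrix-bound inhibitor of metalloproteinases, at 10.57, 9.42 and 9.17. MMP1, the interstitial collagenase, was higher by 0.92 in KHOS and lower by 0.43 in U-2OS. COL5A2, a chain of type V collagen, was lower in both lines, by 0.84 in KHOS beside 1.22 in U-2OS, while its partner chain COL5A1 was higher, by 0.74 and 0.66. Untransfected cells lay between the siRNA arrays for MMP14, FBN1 and MMP1, so these genes were lower with nonspecific siRNA than untransfected in KHOS. Mesenchymal markers as a list had a median of 0.41 in KHOS beside 0.14 in U-2OS against nonspecific siRNA, and 0.11 and -0.36 against untransfected cells, and their part in the matrix values was not tested.

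Of the adhesion genes, FERMT2, the integrin activator kindlin 2, was at 12.26 with CDK11 siRNA, 10.95 with nonspecific siRNA and 11.69 untransfected in KHOS, and was higher by 0.99 in U-2OS. ITGA2, the collagen-binding integrin chain, was at 13.08, 12.10 and 12.03 in KHOS, a difference of 0.98 beside 0.41. None of the 21 integrin and focal adhesion genes was below -0.5 in KHOS and 4 were above 0.5, against 9.94% and 8.39% of all genes. In U-2OS none was below -0.5 and 3 were above 0.5, against 5.2% and 5.71% of all genes. The list medians were 0.14 in KHOS beside 0.16 in U-2OS. Among the 18 YAP-TEAD targets 4 were above 0.5 in KHOS (8.39% of all genes). Their median was 0.26 against nonspecific siRNA but 0.079 against untransfected cells. F3, tissue factor, was at 6.20, 5.09 and 4.49 in KHOS, under the signal limit on each array.

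Genes of cell death differed singly and not as a list. BMF, a BH3-only protein that binds and blocks the survival members of the BCL2 family, was at 6.90 with CDK11 siRNA, 4.53 with nonspecific siRNA and 4.14 untransfected in KHOS. In U-2OS it was at 3.78, 3.18 and 3.28, so only the KHOS CDK11 siRNA array was above the limit and no fold is given. BCL2L2, the survival protein BCL-W, was at 7.28, 8.49 and 8.26 in KHOS, a difference of -1.22 beside -0.22 in U-2OS. BOK, a BAX-like member, was at 7.41, 8.37 and 8.39, a difference of -0.96 beside 0.19. Of the 27 genes of the BCL2 and caspase list 3 were below -0.5 and 2 above 0.5 in KHOS (9.94% and 8.39% of all genes). The median was 0.10, so the list as a whole was near the background shares.

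Secreted regulators of bone and growth factors differed between controls. TNFRSF11B, the decoy receptor osteoprotegerin that blocks osteoclast formation, was at 9.91 with CDK11 siRNA, 8.21 with nonspecific siRNA and 9.56 untransfected in KHOS. WNT5B, a Wnt ligand, was at 7.39, 5.98 and 7.34. IGFBP1, a binding protein of insulin-like growth factors, was at 9.33, 8.22 and 9.08. In these 3 genes the CDK11 siRNA array was close to untransfected cells and the nonspecific siRNA array was low. IGFBP3, the main serum carrier of these growth factors, was higher than both controls, at 9.05, 8.23 and 7.07 in KHOS, and at background in U-2OS. FZD7, a Wnt receptor, was lower than both, at 9.58, 10.80 and 10.57.

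Some of the genes that were high in KHOS and near level in U-2OS were barely expressed in KHOS. DHRS2, a short-chain dehydrogenase, was at 4.37 with CDK11 siRNA, 2.29 with nonspecific siRNA and 2.09 untransfected in KHOS, where U-2OS had 14.65 to 14.73. BEX1, a brain-expressed gene, was at 4.82, 3.18 and 3.03 in KHOS, where U-2OS had 12.80 to 13.33. These are small signals beside those of the other line on the same probe set. In other high genes, not all of them near level in U-2OS, only a dimmer probe set was higher in KHOS. S100A6, a calcium-binding protein gene, was at 8.74, 7.12 and 7.86 on 1 probe set, while its brighter one was at 15.49, 15.47 and 15.26. CKAP2, a spindle protein, was higher by 2.07 on 1 probe set and lower by 0.49 on the brighter one. In U-2OS the first of these was higher by 0.76. NACA, a chaperone subunit at the ribosome, was higher by 2.14 on 1 probe set and within 0.1 of level on both bright ones, one of which was at -0.066. Its dim probe set was also beyond 3 SD in U-2OS, higher by 1.54. UCHL5, a deubiquitinase of the proteasome, was at 6.14 with CDK11 siRNA, 3.98 with nonspecific siRNA and 6.86 untransfected, so that the nonspecific siRNA array was the one that stood apart.

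AFF4, the scaffold of the super elongation complex, and MAST4, a microtubule-associated kinase, were higher in KHOS with several probe sets in view. AFF4 was at 11.88 with CDK11 siRNA, 10.93 with nonspecific siRNA and 11.49 untransfected in its brightest probe set, a difference of 0.96 beside 0.37 in U-2OS. MAST4 was at 8.40 with CDK11 siRNA as the mean of 2 probe sets, which is 1.60 above nonspecific siRNA and 1.40 above untransfected cells. In U-2OS its levels were 7.82, 7.53 and 6.77.

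The splicing and polymerase II lists stood near 0, unlike the mitosis and histone lists above. The 60 measured pre-mRNA splicing genes had a median of 0.052 in KHOS beside 0.014 in U-2OS. In KHOS 2 were below -0.5 and 1 above 0.5 (9.94% and 8.39% of all genes). SRSF6, a splicing regulator of the SR family, was at 11.24 with CDK11 siRNA, 12.13 with nonspecific siRNA and 12.15 untransfected in KHOS, and was lower by 0.99 in U-2OS. The 45 genes of RNA polymerase II and elongation had a median of -0.015 in KHOS. Within it, LEO1, a subunit of the PAF1 elongation complex, was at 8.91, 10.27 and 10.27 in KHOS and lower by 2.08 in U-2OS, and RPRD1A, which binds the tail of the polymerase, was lower by 1.23 and 1.48. CCNL1, a cyclin partner of CDK11, was at 11.18, 10.56 and 10.27 in KHOS, a difference of 0.61 beside 0.31. These measures are of transcript levels, and the array does not read splicing itself.

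Interferon-stimulated genes, which cells switch on after sensing viral or foreign RNA, showed what the choice of control does in KHOS. Against nonspecific siRNA the 40 measured genes had a median of -0.039, with 1 above 0.5 and 1 below -0.5 (8.39% and 9.94% of all genes). Against untransfected KHOS cells 39 of the 40 were above 0.5 with CDK11 siRNA and all 40 with nonspecific siRNA, where 11.9% and 6.18% of all genes were, and the medians were 1.80 and 1.76. In U-2OS the medians were 0.15 and 0.028, and 8 of 40 were above 0.5 with CDK11 siRNA (6.73% of all genes). RSAD2, the antiviral enzyme viperin, was at 9.99 with CDK11 siRNA, 10.22 with nonspecific siRNA and 6.71 untransfected in KHOS. MX1, an antiviral GTPase, was at 11.51, 11.05 and 8.73, and TRIM22, an antiviral ubiquitin ligase, at 10.43, 10.29 and 7.22. Both KHOS siRNA arrays were high for these genes and the untransfected array was low, and the part of this in the inflammatory and AP-1 values against untransfected cells was not tested.

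Hypoxia and glycolysis genes had a higher median in U-2OS than in KHOS. Of 37 measured, 6 were above 0.5 in KHOS (8.39% of all genes) beside 13 in U-2OS (5.71%). The medians were 0.0057 in KHOS and 0.34 in U-2OS. STC1, a secreted glycoprotein induced by low oxygen, was at 11.06 with CDK11 siRNA, 9.67 with nonspecific siRNA and 9.32 untransfected in KHOS, but its difference was larger in U-2OS, 3.30 beside 1.39. CA12, a carbonic anhydrase, was at -1.09 in KHOS, where it was dim, and 0.68 in U-2OS. Ribosomal protein genes had a median of 0.017 in KHOS with none of 27 beyond 0.5 in either direction. Housekeeping genes had -0.18 with 3 of 16 below -0.5 in KHOS (9.94% of all genes). Of these 16 genes, 13 had a lower signal with CDK11 siRNA than with nonspecific siRNA in KHOS (49.6% of all genes), beside 8 in U-2OS (48.2%). The housekeeping median in KHOS was less negative than those of the replication lists, and it was -0.011 in U-2OS.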

How the data were processed

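RNA of KHOS and U-2OS cells was measured on Affymetrix U133 Plus 2.0 arrays, 1 array for each line and condition, with RNA of 3 flasks pooled per array. The authors made the deposited log2 values with gcrma, which removes background signal, brings the arrays to 1 distribution and gives 1 value per probe set. The package version is not given in the sources used here. By that step a shift of all transcripts alike would not be seen, and gcrma pulls dim probe sets to a common floor near 2. Genes were named from the platform annotation, updated by gene ID through RefSeq (41043 of 41097 probe sets with 1 symbol; 1801 had several and 11777 none), and only probe sets with 1 symbol were named, apart from those of CDK11A and CDK11B. In KHOS 28 probe sets beyond 3 SD had no single gene.

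Probe sets over the signal limit of about 6.6 on any array were kept (16409), which stands in for the study's filter, since its present and absent calls were not used here. The z-score of the difference was taken over them, and a gene was counted when any probe set lay beyond 3 SD, with its value the mean over those probe sets. Gene lists (44) were described by medians and by counts beyond 0.5, using for each gene the probe set with the highest mean. No test was possible within a line, and the 2 lines were not used as replicates. The members and lists were chosen with earlier results of these data known. Named were the 15 highest and 15 lowest genes beyond 3 SD that were also beyond 1 log2 unit against untransfected KHOS, up to 6 members of each list with the largest difference, the 10 highest and 10 lowest by KHOS minus U-2OS among those within 0.5 in U-2OS, CDK11A and CDK11B, and genes beyond 3 SD in opposite directions. A further gene of this rule is not reported here. MKI67 and some further list members were named after their values were seen. Promoter sequences are from RefSeq (GRCh38.p14). The counting was checked on simulated log2 differences, with 1 probe set per gene and the same noise at every level. Python 3.11.15, pandas 2.3.3, numpy 2.4.6 and matplotlib 3.10.9 were used. The control, the filter, the limit, the scale, the normalization and the rule for several probe sets were varied.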

Additional observations from a re-analysis of the deposited data

Results flagged for a closer look

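HELLS, a helicase of the SNF2 family that helps DNA methylation, is given here because it lay beyond 3 SD in opposite directions in the lines. Its difference, as the mean of the probe sets beyond 3 SD, was -1.46 in KHOS. A U-2OS probe set past that limit was at 1.15. The brightest probe set of the gene was lower in both, at -1.16 in KHOS and -0.62 in U-2OS. MIR9-1HG, the host transcript of a microRNA, is given for the same reason, with 1.69 in KHOS, where its levels were 4.14 with CDK11 siRNA, 2.44 with nonspecific siRNA and 2.14 untransfected, and -1.10 in U-2OS. For neither gene was this contrast of the lines tested, so the difference was not tested. Groups of 1 array allow no search for arrays far from the others.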

How the results depend on the processing

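In KHOS 98 genes were lower and 76 higher beyond 3 SD, and 36 and 29 of these lay within 0.5 in U-2OS, or 25 and 16 without those at or below the signal limit there. With untransfected cells as the control the higher genes were 122, and those within 0.5 in U-2OS were 21 lower and 65 higher, with 78 lower genes in all. With no filter on signal the 4 counts were 513 lower, 443 higher, 257 lower within 0.5 and 227 higher within 0.5. At 2 SD they were 390, 294, 189 and 142, and at 4 SD 30, 27, 6 and 8. With the median absolute deviation as the scale they were 291, 224, 133 and 103, and at 1 log2 unit 279, 229, 128 and 104. With both KHOS siRNA arrays over the signal limit the genes within 0.5 in U-2OS were 21 lower and 19 higher. With the brightest probe set alone 65 genes were lower, and 18 higher genes lay within 0.5 in U-2OS. The other 17 counts, which include those after a further quantile normalization and after median centring, were within 1.5 times. They are not always counts of the same genes: with both KHOS siRNA arrays over the limit 82 genes were lower, of which 39 were among the 98, and 60 higher, of which 31 were among the 76. Against untransfected cells 52 of the 78 lower and 28 of the 122 higher genes were shared. Against untransfected cells UCHL5 was at -0.72 and PTX3 at -0.64. On the brightest probe set UBE2K was at 0.15, PCBD2 at 0.29, NACA at -0.066, CKAP2 at -0.49 and EIF4E2 at -0.0069. The other named genes beyond 3 SD kept their direction, 376 values close to and 56 away from the value given. Named list members within 3 SD were not varied singly, and some of them can change direction with the control. Of 78 list medians, 77 lay within 1 SD (0.449) of the main value, and that of the interferon-stimulated genes was -0.039 in the main account and 1.80 against untransfected cells. Among lists whose main median was beyond 0.2 in either direction, the shifts over 1.5 times were those of the inflammatory genes, 0.13 with no filter and 0.54 against untransfected cells beside 0.34, and, against untransfected cells, of the AP-1 genes (0.67 beside 0.32), the matrix genes (0.36 beside 0.21) and the mitosis genes (-0.47 beside -0.29). The causes were not tested, apart from what each setting does by construction. No array could be left out, since each condition had 1, and that number limits the precision. No paired analysis was possible because each group holds 1 array and the labels give no replicate numbers.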
